A study of Mus musculus with 2 samples.

Results

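The genes described here are 10 molecular chaperones of the heat shock and stress response families: Hspa1a, Hspa1b, Hsph1, Dnajb1, Hspa8, Hsp90aa1, Hsp90ab1, Hspd1, Hspe1 and Hspa5. They were listed by name, by a rule that uses no measured value but was written with earlier results of these data known, and all 10 were found among the 32285 genes of the matrices of both libraries. The libraries are single-cell 3′ RNA-seq libraries of CD11b+ and CD11c+ cells sorted from colorectal polyps of C57BL6/J mice, 1 library of wild-type (WT) mice and 1 of Clec7a-/- mice, which lack Dectin-1, a receptor for β-glucans. Both groups carried the same tumor induction, a dose of the carcinogen azoxymethane (AOM) and then 3 cycles of 1% dextran sulfate sodium (DSS), and the labels give an age of 26 weeks and a time of 16 weeks after AOM. The polyps were shaken in EDTA for 40 min and digested with collagenase for 120 min at 37 °C before the sort. Cells of 5 WT mice and of 4 Clec7a-/- mice were pooled, so that each genotype is 1 library and no difference between genotypes could be tested against the spread between mice.

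Chaperones hold unfolded proteins and help them to fold. The inducible genes Hspa1a and Hspa1b (cytosolic Hsp70), Hsph1 (Hsp110, a nucleotide exchange factor of Hsp70) and Dnajb1 (Hsp40, which delivers clients to Hsp70) are classical targets of the transcription factor HSF1, whereas Hspa8 (Hsc70), Hsp90aa1 and Hsp90ab1 (the cytosolic Hsp90 pair) are expressed in most cells without stress. Hspd1 and Hspe1 encode the Hsp60 and Hsp10 subunits of the mitochondrial chaperonin, and Hspa5 encodes BiP, the Hsp70 of the endoplasmic reticulum, which is induced by the unfolded protein response. In tissue digested at body temperature, transcripts of the inducible set are widely known as markers of cell handling, which makes their distribution over barcodes of interest in a single-cell data set.

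Promoter sequences of members are given here as background, and their relation to the levels below was not tested. RefSeq windows of GRCm38.p6 were available for 7 of the 10 members. The heat shock element was searched as a pair of facing units, GAANNTTC or TTCNNGAA, which read the same on both strands and can overlap. A pair was found in 15.1% of all 32851 promoter windows of 300 bases, and an element of 3 units in 0.603%. The pair, in capitals, lay 104 bases before the start of Hspa1a (chr17:34972157-34972286, minus strand) and of Hspa1b (chr17:34959239-34959368, minus strand), and the printed stretches, which end at the base before the start, had the same base at 129 of 130 positions. Both are genes of 1 exon on the minus strand, at chr17:34969190-34972156 (Hspa1a) and chr17:34956436-34959238 (Hspa1b) in the GRCm38 annotation.
Hspa1a: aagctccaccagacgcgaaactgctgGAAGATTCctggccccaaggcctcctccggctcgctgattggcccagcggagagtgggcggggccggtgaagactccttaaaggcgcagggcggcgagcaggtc
Hspa1b: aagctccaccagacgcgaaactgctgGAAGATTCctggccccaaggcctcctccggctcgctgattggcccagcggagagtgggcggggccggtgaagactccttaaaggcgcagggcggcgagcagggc

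The other members lie apart from them, except for the chaperonin pair, Hspd1 at chr1:55077835-55088243 on the minus and Hspe1 at chr1:55088132-55091307 on the plus strand, whose 5′ ends overlap. Hsph1 (chr5:149636337-149636466, minus strand) held a pair 33 bases before its start, and 2 overlapping pairs after it. Hspe1 (chr1:55088018-55088147, plus strand) held 3 overlapping pairs, the first 89 bases before its start. The second RefSeq window of Hspd1, which is transcribed the other way, shares 285 of its 300 positions with that of Hspe1, so that the 2 chaperonin genes have this element in common. Capitals mark the heat shock element pairs.
Hsph1: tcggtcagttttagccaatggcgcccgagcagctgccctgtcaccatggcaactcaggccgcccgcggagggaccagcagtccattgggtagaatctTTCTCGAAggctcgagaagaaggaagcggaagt
Hspe1: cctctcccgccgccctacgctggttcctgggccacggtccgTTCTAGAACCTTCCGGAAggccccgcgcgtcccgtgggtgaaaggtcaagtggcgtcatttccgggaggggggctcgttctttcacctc

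The promoter of Hspa5 (chr2:34771960-34772089, plus strand) held no such pair. It held the letters of an endoplasmic reticulum stress element, CCAAT and CCACG separated by 9 bases, 65 bases before the start, a combination found in 0.119% of all windows, while CCAAT alone was in 37.4%. Capitals mark CCAAT and CCACG. Neither RefSeq window of Dnajb1 held a heat shock element pair. These are matches of letters, not measured binding sites.
Hspa5: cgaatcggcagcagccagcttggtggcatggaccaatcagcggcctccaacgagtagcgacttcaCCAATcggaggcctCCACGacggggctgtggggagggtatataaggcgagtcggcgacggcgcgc

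The WT library held 3467 barcodes with 15869215 UMIs (unique molecular identifiers, each a counted transcript molecule), and the Clec7a-/- library 3080 barcodes with 11808230 UMIs. Barcodes entered the main results where they had 200 to 4000 genes and no more than 5% of UMIs from mitochondrial genes, which left 2696 WT and 1999 Clec7a-/- barcodes with a median of 3412 and 2671 UMIs. The kept barcodes fell into neutrophil-like (553 WT and 364 Clec7a-/-), mixed (348 and 81), monocyte-like (667 and 474), macrophage-like (520 and 295), dendritic cell (DC)-like (361 and 565), T-cell-like (64 and 121) and unnamed classes (142 and 52), with 3 classes of under 50 barcodes a library left out of the orders below. Most neutrophil-like barcodes of the WT library came from 1 cluster (461 of 553) and most of the Clec7a-/- library from another, shallower one (322 of 364). The unnamed class was shallow, with medians of 1000.5 and 809.5 UMIs, and held epithelial marker transcripts at a summed level of 1777 CPM (defined below) in the WT and 7225 in the Clec7a-/- library, against at most 38.9 in the other 6 classes. The libraries shared 17 barcode sequences.

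A level is given below in CPM, the UMIs of a gene per 1000000 non-mitochondrial UMIs of the same barcodes, with an exact 95% Poisson interval in brackets where it matters. The intervals cover counting error only and leave out differences between cells, mice and libraries. As counts came from transcript 3′ ends, levels of different genes are not compared.

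Over all kept barcodes, the levels of the 10 chaperones were similar in both libraries. Hspa1a had a level of 131 in the WT and 168 in the Clec7a-/- library, Hspa1b of 156 and 145, Hsph1 of 66.1 and 57.0, and Dnajb1 of 97.4 and 98.5. Hspa8 had a level of 518 and 533, Hsp90aa1 of 1036 and 1149, and Hsp90ab1 of 642 and 841. Hspd1 had a level of 99.2 and 109.6, Hspe1 of 156 and 221, and Hspa5 of 2302 and 2149.8.

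None of the 10 differed between the libraries by 1.5-fold in either direction, a fold passed upward in the Clec7a-/- library by 10.4% and downward by 5.66% of the 8458 genes with at least 100 UMIs. The log2 ratio of Clec7a-/- over WT ranged from -0.21 for Hsph1 to 0.50 for Hspe1, with a median of 0.093 beside 0.13 over all genes. Hspe1 was 1.42-fold higher (log2 ratio 0.50, interval 0.41 to 0.60) and Hsp90ab1 was 1.31-fold higher (0.39, interval 0.34 to 0.44) in the Clec7a-/- library, and these ratios stayed above 0 in all 21 settings tried, with the lowest values, 0.30 and 0.17, when both libraries were given the class mix of the WT library. DC-like barcodes, a class with high levels of both genes, made up 13.4% of the WT and 28.3% of the Clec7a-/- library.

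**Figure D1:**
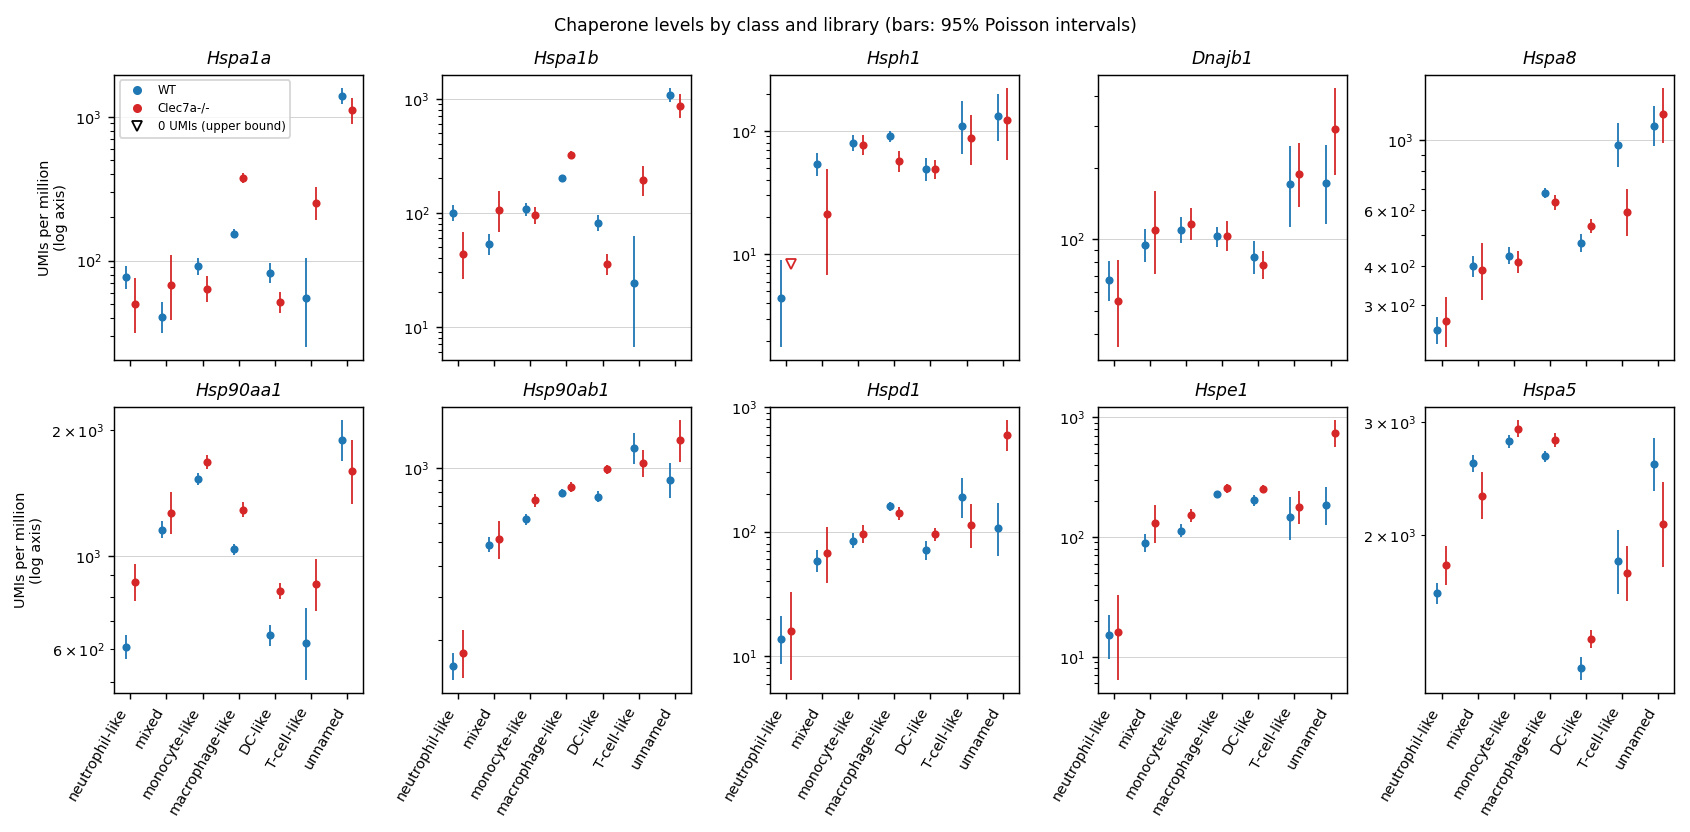
Level of each chaperone (CPM of non-mitochondrial UMIs, log axis) in 7 classes of the WT (blue) and the Clec7a-/- (red) library, with 95% Poisson intervals as bars and an open triangle for the upper bound where no UMI was counted. Hsph1, Hspd1 and Hspe1 are lowest in the neutrophil-like class, while Hspa5 is lowest in the DC-like class.

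Ratios between classes were larger than those between the libraries. The highest over the lowest of the 4 large myeloid classes (neutrophil-, monocyte-, macrophage- and DC-like) was 1.63-fold for Dnajb1 to 20.5-fold for Hsph1 in the WT library. The Hsph1 value rested on 7 neutrophil-like UMIs and on the clustering used, as given below. Of the 4 myeloid classes, the neutrophil-like class had the lowest level of 8 chaperones in the WT and of 7 in the Clec7a-/- library, but the same class was lowest for 68.1% and 68.5% of all genes with at least 100 UMIs, so that this count is near the background. The DC-like class was lowest for the other 2 and 3 chaperones, against 17.7% and 17.2% of all genes. The macrophage-like class was highest for 7 and 5 chaperones, against 28.8% and 23.8% of all genes, and the DC-like class for 0 and 1, against 32.8% and 37.2%. For Hspa1a, Hspa1b and WT Hsph1 the place of the macrophage-like class rested on few barcodes. Without barcodes of at least 10 UMIs of Hspa1a and Hspa1b together, a setting chosen after seeing the data, Hspa1a in the WT library was at 22.4 in macrophage-like against 41.5 in neutrophil-like and 43.4 in monocyte-like barcodes, and in the Clec7a-/- library at 42.7 against 50.2 and 46.2. The intervals of these 3 Clec7a-/- values overlapped. Hspa1b was then at 36.6 in macrophage-like against 48.4 in neutrophil-like and 52.7 in monocyte-like barcodes in the WT library. In the Clec7a-/- library it was at 46.8 against 43.3 and 67.2. WT Hsph1 was at 73.6 against 76.4 in monocyte-like barcodes, within counting error. The macrophage-like class was then no longer highest for either Hsp70 gene, and the DC-like class was lowest of the 4 in both libraries. The removal was made on the same 2 genes, and 27 of 44 WT and 27 of 48 Clec7a-/- barcodes removed were macrophage-like. A fall of that class was thus built in. With equal UMIs a barcode and no removal, Hspa1a was found in 6.48% and 11.6% of macrophage-like barcodes, the largest share of the 4. Monocyte-like barcodes followed at 4.32% and 4.75%. For Hspa1b the shares were 7.09% and 10.5% against 5.28% and 5.88%. Only the Clec7a-/- Hspa1a intervals did not overlap.

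In the main clustering, Hsph1 was almost absent from neutrophil-like barcodes. It had 7 UMIs there in the WT library, a level of 4.39 (1.77 to 9.05), and 0 UMIs in the Clec7a-/- library. For 0 UMIs the exact upper bound was 8.41, and 3 counts would give a level of 6.84. The macrophage-like level was 90.2 in the WT library, 20.5-fold higher. In the Clec7a-/- library the monocyte-like level was 76.9, which is 11.2-fold above the level of 3 counts. At an equal depth of 1000 UMIs a barcode, 1 of 541 and 0 of 207 neutrophil-like barcodes had an Hsph1 UMI. Among monocyte-like barcodes these were 44 of 625 and 35 of 442. In a clustering of all barcodes, the WT neutrophil-like level up to 5% mitochondrial UMIs was 12.7, from 22 UMIs, against 87.8 in macrophage-like barcodes. The Clec7a-/- neutrophil-like level was then 2.13, from 1 UMI, against 70.4 in monocyte-like barcodes.

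Both chaperonin genes were also lowest in neutrophil-like and highest in macrophage-like barcodes among the 4 myeloid classes. Hspd1 had a level of 13.8 in WT and 16.0 in Clec7a-/- neutrophil-like barcodes and of 160.2 and 141 in macrophage-like barcodes. Hspe1 had a level of 15.1 and 16.0 in neutrophil-like and of 227 and 254 in macrophage-like barcodes, a ratio of 15.1-fold and 15.9-fold. The DC-like class set them apart, since Hspe1 was as high there (203 and 253) as in the macrophage-like class, within counting error in both libraries, whereas Hspd1 was at 70.6 and 95.6. Hspe1 thus made up 74.2% (70.1 to 78.0%) and 72.6% (69.6 to 75.4%) of the UMIs of the pair in DC-like barcodes, against 58.6% and 64.3% in macrophage-like barcodes.

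The cytosolic Hsp90 pair differed in its composition between classes. Hsp90ab1, the constitutive form, had a level of 156 and 176 in neutrophil-like, 620.2 and 740.1 in monocyte-like, 794 and 841 in macrophage-like and 768 and 991 in DC-like barcodes. Hsp90aa1, the more inducible form, was highest in monocyte-like barcodes among the 4 myeloid classes, at 1528 and 1676, with the unnamed class at 1890.2 and 1596, and was at 647 and 825 in DC-like barcodes. Hsp90ab1 therefore made up 20.4% (18.2 to 22.8%) and 16.8% (13.5 to 20.6%) of the UMIs of the pair in neutrophil-like barcodes, 28.9% and 30.6% in monocyte-like, 43.3% and 39.5% in macrophage-like and 54.3% and 54.6% in DC-like barcodes. The order was the same in both libraries, and the intervals of these 4 classes did not overlap within a library. In T-cell-like barcodes the share was 66.1% in the WT and 55.1% in the Clec7a-/- library.

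Hspa8, the constitutive Hsc70, had its lowest level in neutrophil-like barcodes, 250.5 and 267, and a level of 681 and 635 in macrophage-like barcodes, 2.72-fold and 2.38-fold higher. Dnajb1 varied least among the inducible genes, from 67.2 and 54.7 in neutrophil-like to 109.7 and 116 in monocyte-like barcodes. Its T-cell-like level was higher, at 170.3 (113 to 246) and 188 (136 to 253).

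Hspa5 ran in another order. The BiP gene had its highest levels in monocyte-like barcodes, 2800.4 and 2933, and in macrophage-like barcodes, 2652 and 2815, and its lowest in DC-like barcodes, 1238 and 1375. Neutrophil-like barcodes, lowest for most other members, were intermediate at 1619.7 and 1795. Within the DC-like class the low level held for each of the 3 clusters, one led by Clec9a and Xcr1 (1499 and 1511), one by Siglecg, Zbtb46 and Fscn1 (1159.8 and 1432) and one by Il12b (952 and 1076).

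Over the 14 points given by 7 classes in 2 libraries, log2 levels of Hsp90ab1, Hspd1, Hspe1 and Hsph1 varied together, with a Pearson r of 0.85 to 0.94 for each pair. Hsp90aa1 and Hspa5 had an r of 0.80 with each other and of at most 0.41 with those 4 genes, and Hspa1a and Hspa1b had an r of 0.95. Points of a library share its depth and points of a class its cells, so these values are descriptive. Of 4565 other genes with at least 500 UMIs, those most like Hspd1 were Vdac1, Tmem147, Pdha1, Ube2e1 and Rps2, each with an r of 0.96. Those most like Hspa5 were Rnasek (0.94), Aoah (0.93), Dnajb9 (0.93), Lpl (0.91) and Ctsk (0.91), of which Dnajb9 encodes an endoplasmic reticulum partner of BiP. Those most like Hspa1a were Wdr26 (0.86), Taf1d, Zfas1, Mrpl57 and Rab24.

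Lists of related genes behaved alike or apart. The 8 genes of TRiC, the cytosolic counterpart of Hsp60, were all lowest in the neutrophil-like and all highest in the DC-like class in both libraries, with a summed level of 106 and 107 against 1372 and 1483, beside 68.1% and 68.5% of all genes that were lowest in the former and 32.8% and 37.2% that were highest in the latter. Endoplasmic reticulum chaperones and unfolded protein response genes had a summed level of 3297 and 4180.2 in neutrophil-like, 5080.1 and 5779.7 in DC-like and 7178 and 7322 in macrophage-like barcodes. Between the libraries, 0 of 8 TRiC genes, 2 of 25 genes of the endoplasmic reticulum list and 2 of 28 HSF1 and co-chaperone genes were at least 1.5-fold higher in the Clec7a-/- library, and 0 genes of these lists were at least 1.5-fold lower. These shares are below the 10.4% and 5.66% of all genes given above, so the lists are not set apart by them. The 4 genes were Herpud1, a component of endoplasmic reticulum-associated degradation (911 against 505), Eif2ak3, which encodes the stress sensor PERK (45.4 against 28.5), the transcription factor gene Hsf2 (59.2 against 36.0) and Hspa14 (39.5 against 26.3). The immediate-early list had 1 of 17 genes higher, Nr4a1 (212 against 139), and 2 lower, among them Egr1 (92.5 against 160.2). Its share of lower genes was above the 5.66% of all genes. The list had a median log2 ratio of -0.31 beside 0.13, with 13 of 17 genes below 0. Of the 8 mitochondrial chaperone and protease genes, Clpp was 1.51-fold higher (15.3 against 10.2). It was the only 1 of the 8 past 1.5-fold upward, beside 10.4% of all genes, and 0 were lower.

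**Figure D2:**
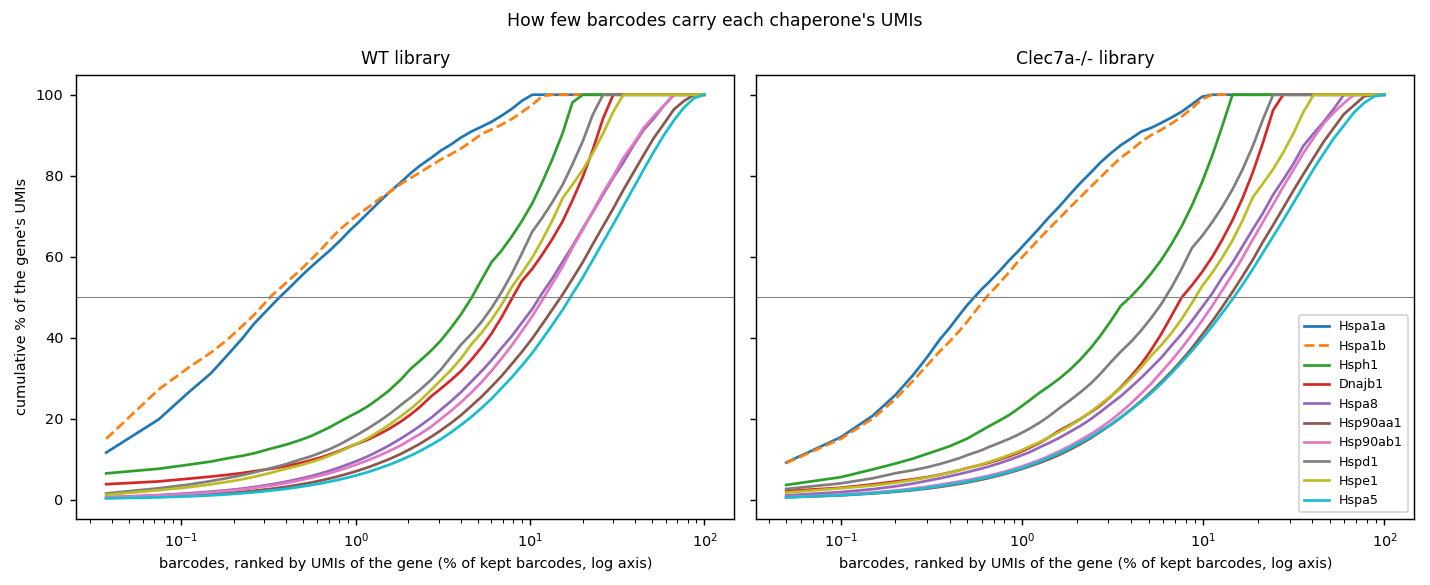
Cumulative percent of the UMIs of each chaperone (y axis) against the percent of kept barcodes, ranked from the most to the fewest UMIs of that gene (x axis, log axis), for the WT (left) and the Clec7a-/- (right) library. The curves of Hspa1a and Hspa1b pass 50% at under 1% of barcodes, far to the left of the other 8 genes.

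Hspa1a and Hspa1b differed from all other members in how few barcodes carried them. Of 1563 Hspa1a UMIs in the WT library, 50% were in 10 barcodes, and of 1226 in the Clec7a-/- library, 50% were in 11 barcodes. For Hspa1b these were 9 and 13 barcodes. The 1% of barcodes with most Hspa1a UMIs held 67.9% and 62.4% of them, against 21.3% and 23.1% for Hsph1, 13.6% and 12.0% for Dnajb1 and 5.95% and 7.83% for Hspa5, while the deepest 1% of barcodes held 3.66% and 4.48% of all UMIs. A single WT barcode held 181 Hspa1a UMIs and a single barcode held 279 Hspa1b UMIs.

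Barcodes with at least 10 UMIs of Hspa1a and Hspa1b together numbered 44 in the WT and 48 in the Clec7a-/- library, and 27 of each were macrophage-like. They made up 5.19% of WT and 9.15% of Clec7a-/- macrophage-like barcodes, against 1.39% and 1.42% of DC-like and 0.362% and 0% of neutrophil-like barcodes. Macrophage-like barcodes were the deepest of these classes, with medians of 7824 and 6180.0 UMIs. At 1000 UMIs a barcode, Hspa1a was found in 6.48% (4.47 to 9.02%) of WT and 11.6% (8.07 to 16.0%) of Clec7a-/- macrophage-like barcodes, and in 2.39% and 1.88% of DC-like barcodes, the class with the lowest share in both libraries. Without thinning these shares were 16.2% and 22.7% in macrophage-like and 6.65% and 6.37% in DC-like barcodes.

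Because of this concentration, levels of Hspa1a and Hspa1b in a class can rest on 1 barcode. In mast-cell-like WT barcodes, 128 of 129 Hspa1a UMIs and 228 of 228 Hspa1b UMIs came from a single barcode of 16. In T-cell-like Clec7a-/- barcodes, 55 of 58 and 42 of 44 came from a single barcode of 121. The high level of the unnamed class, 1407 and 1109 for Hspa1a, came from 10 WT and 11 Clec7a-/- barcodes with any Hspa1a UMI. The Poisson intervals of these 2 genes are therefore too narrow as a statement about cells.

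Between the libraries, the macrophage-like class carried the difference in Hspa1a. Its level there was 154 in the WT and 375 in the Clec7a-/- library (log2 ratio 1.28, interval 1.12 to 1.44), and that of Hspa1b was 200.0 and 323 (0.69, 0.54 to 0.84). With all barcodes, the difference lay in the cluster led by Pgf, Tmem26 and Adamdec1, with Hspa1a at 58.7 in the WT and 530.1 in the Clec7a-/- library, while the cluster led by Igf1, Sh3bgrl2 and Lpl was at 215 and 244. The class level rested on few barcodes, as 6 WT and 6 Clec7a-/- macrophage-like barcodes held 50% of the Hspa1a UMIs. Single barcodes held 181 of 620 in the WT and 112 of 718 in the Clec7a-/- library. Hsph1 went the other way in macrophage-like barcodes, with 90.2 in the WT and 56.4 in the Clec7a-/- library (log2 ratio -0.68, from 362 and 108 UMIs).

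Without the barcodes of at least 10 Hspa1a and Hspa1b UMIs, the Hspa1a level over all kept barcodes dropped to 32.4 (29.2 to 35.9) in the WT and 35.5 (31.2 to 40.1) in the Clec7a-/- library. The macrophage-like ratio was then 0.94 (0.47 to 1.40) for Hspa1a and 0.36 (-0.058 to 0.76) for Hspa1b, from 85 and 74 UMIs and from 139 and 81 UMIs. The DC-like ratios, -0.68 for Hspa1a and -1.20 for Hspa1b with all barcodes, both became 0.25. The T-cell-like ratios, 2.21 and 2.98, became -2.06 and -1.47. These came from only 9 WT and 3 Clec7a-/- UMIs of Hspa1a, and from 4 and 2 UMIs of Hspa1b. Of the 9 WT Hspa1a UMIs, 5 were in 1 barcode. These removals were made on the same 2 genes, so the values that remain are a description.

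**Figure D3:**
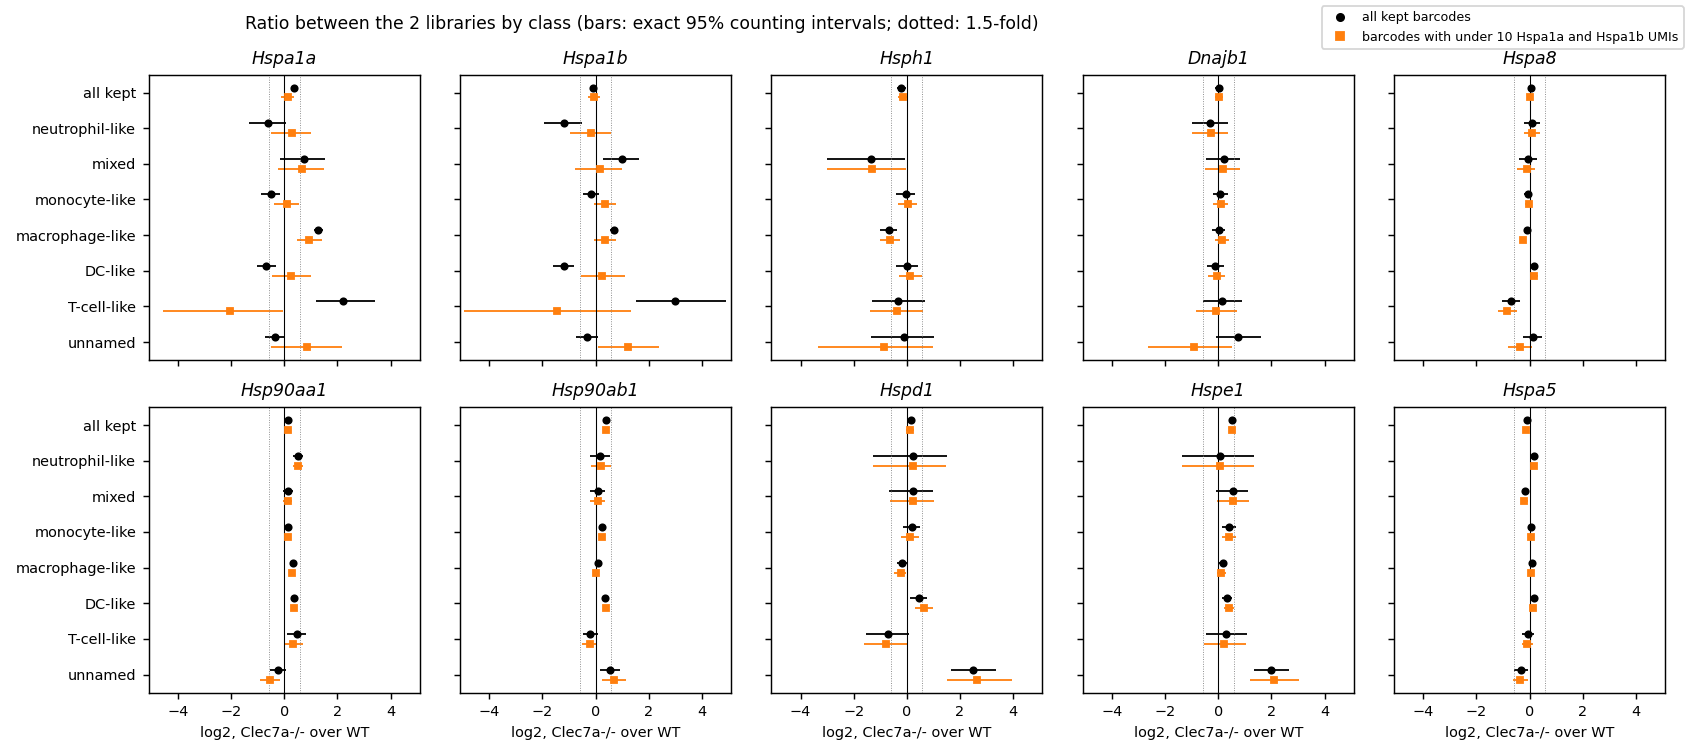
Log2 ratio of the Clec7a-/- over the WT library (x axis) for each chaperone in all kept barcodes and in 7 classes, with exact 95% counting intervals, for all kept barcodes (black) and for barcodes with under 10 UMIs of Hspa1a and Hspa1b together (orange). The dotted lines mark 1.5-fold. The T-cell-like ratio of Hspa1a moves from 2.21 to -2.06, the latter from only 9 WT and 3 Clec7a-/- UMIs.

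The other chaperones differed between the libraries in some classes. Hsph1 was at 53.9 in the WT and 21.0 in the Clec7a-/- library in mixed barcodes (log2 ratio -1.36, -3.02 to -0.082, from 88 and 5 UMIs). In T-cell-like barcodes Hspa8 was at 967 and 593 (-0.70, -1.05 to -0.37) and Hspd1 at 189 and 113 (-0.73, -1.54 to 0.066). Ratios of the Hsp90 genes in the larger classes were nearer to even. Hsp90aa1 was higher in the Clec7a-/- library in neutrophil-like (log2 ratio 0.51), macrophage-like (0.31) and DC-like barcodes (0.35, 0.25 to 0.45), and Hsp90ab1 was higher in DC-like (0.37, 0.27 to 0.46) and monocyte-like barcodes (0.25) but near even in macrophage-like ones (0.082, -0.0051 to 0.17). Neutrophil-like barcodes came mostly from a different cluster in each library, as given above, so the neutrophil-like ratio also compares clusters. Hspe1 was higher in monocyte-like (0.42) and DC-like barcodes (0.32). Hspd1 and Hspe1 had their highest ratios in the unnamed class (2.48 and 1.98), at 107 and 185 in the WT and 597 and 731 in the Clec7a-/- library. They rested on few barcodes, with UMIs in 10 and 12 of 142 WT and in 11 and 11 of 52 Clec7a-/- barcodes. In the Clec7a-/- library 3 barcodes held 50% of the UMIs of each gene. Without barcodes of at least 10 Hspa1a and Hspa1b UMIs, Hspd1 was at 58.8 and 369 and Hspe1 at 111 and 477. The summed epithelial marker levels given above were 1777 and 7225, and their part in that difference was not tested.

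Barcodes with Hspa1a UMIs also held more of the other chaperones. At 1000 UMIs a barcode, 111 WT and 85 Clec7a-/- barcodes had an Hspa1a UMI, and the UMIs of each other gene in them were compared with those expected from barcodes of the same class and library without one. Of the 9 other chaperones, 9 were at least 1.5-fold higher over both libraries and 0 were 1.5-fold lower, beside 8.02% and 18.2% of 4698 genes, and their median log2 ratio was 0.90 beside -0.085 for all genes.

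The largest ratio was that of Hspa1b, with 279 UMIs where 5.17 were expected in the WT and 206 where 3.85 were expected in the Clec7a-/- library, 54.0-fold and 53.5-fold. A single mast-cell-like barcode held 78 of the WT UMIs, and a single T-cell-like barcode held 31 of the Clec7a-/- UMIs. Of the 31-base words of the Hspa1a transcript, 63.8% were also in that of Hspa1b, but 0 of those in its last 300 bases, where 3′ counts mostly fall, and the counting could still have split reads between them. Hsph1 was at 29 against 5.76 and 13 against 4.40 UMIs, 5.04-fold and 2.96-fold, and Hspa8 at 96 against 55.2 and 128 against 40.8, 1.74-fold and 3.14-fold.

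Hspd1 was at 22 UMIs against 9.34 and 17 against 8.08. Hsp90aa1 was 1.90-fold and 1.82-fold and Dnajb1 1.88-fold and 1.80-fold higher in barcodes with Hspa1a. Hspa5 was 1.46-fold and 1.94-fold, Hspe1 1.73-fold and 1.45-fold and Hsp90ab1 1.29-fold and 1.79-fold higher. With Hspa1b in place of Hspa1a, Hsph1 was 3.86-fold and 3.61-fold and Hspa8 1.69-fold and 2.65-fold higher. Among all genes, the 5 highest ratios were those of Hspa1b (51.0-fold), the Notch target Hes1 (4.37-fold), Hspa2, another Hsp70 gene (4.10-fold), Hsph1 (3.99-fold) and the transcription factor gene Klf4 (3.93-fold). Of the 31-base words of the Hspa1a transcript, 0.0681% were also in that of Hspa2. Of the HSF1 and co-chaperone genes, 3 of 20 were at least 1.5-fold higher, among them Dnaja1 (1.85-fold), and 4 were lower, among them Stip1 (8 UMIs against 18.1) and Hsf2 (2 against 5.47). Over all genes 8.02% were higher and 18.2% lower, so the count of lower genes is near the background. The immediate-early list, genes also known to respond to handling, had 7 of 17 at least 1.5-fold higher and 0 lower.

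**Figure D4:**
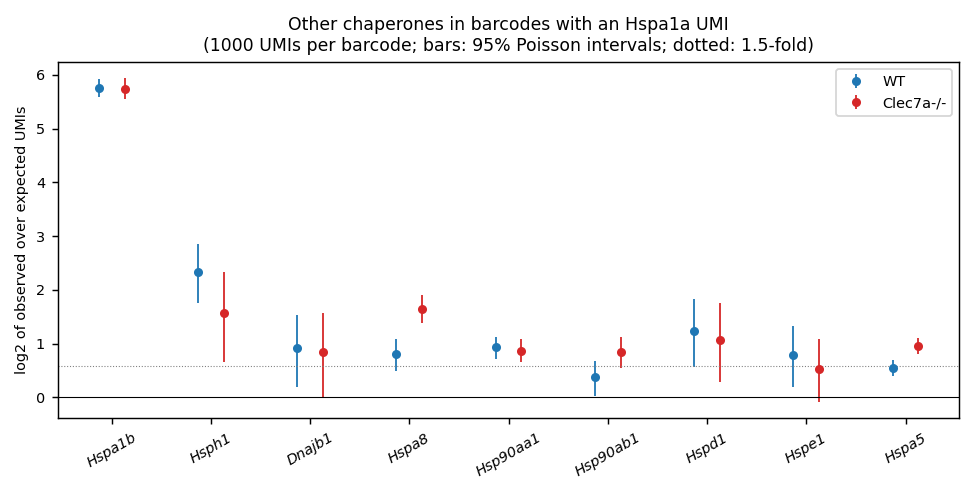
Log2 ratio of observed over expected UMIs (y axis) of the 9 other chaperones in barcodes with an Hspa1a UMI, at 1000 UMIs a barcode, in the WT (blue) and the Clec7a-/- (red) library, with 95% Poisson intervals of the observed count. The dotted line marks 1.5-fold, and Hspa1b lies far above the other genes at 5.75 and 5.74.

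The barcodes removed by the mitochondrial limit were examined next. With a limit on genes only, 213 WT and 281 Clec7a-/- barcodes had above 10% mitochondrial UMIs. Of the 10 chaperones, 4 were at least 1.5-fold higher in them than in barcodes of up to 5% and 0 were lower in each library, against 28.4% higher and 25.3% lower of 7450 genes in the WT and 21.8% and 18.3% of 6737 genes in the Clec7a-/- library. Their median log2 ratio was 0.38 and 0.49, beside 0.11 and 0.086 for all genes. Cell content moved with this share. The share of neutrophil-like barcodes, the class with the lowest Hsp90ab1 level, was 42.3% and 46.5% in the bin of up to 2.5% and 2.51% and 5.76% in the next. Summed epithelial marker levels went from 47.3 in the lowest to 12851 in the highest bin in the WT and from 233 to 7022 in the Clec7a-/- library, and 70.6% and 48.6% of barcodes above 20% were nearest to the unnamed class.

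Hsp90ab1 was higher in each successive mitochondrial bin in both libraries. Its level in bins of up to 2.5, 2.5 to 5, 5 to 10, 10 to 20 and above 20% was 403, 764, 1059, 1567 and 1626 in the WT library, and 540.1, 903, 1120.3, 1727 and 2466 in the Clec7a-/- library. Above 10% it was 2.47-fold and 2.23-fold higher than up to 5% (log2 ratio 1.31, 1.17 to 1.43, and 1.16, 1.06 to 1.25). Within DC-like barcodes the ratio was 0.88 (0.63 to 1.12) and 0.90 (0.77 to 1.03), within macrophage-like barcodes 1.24 (0.70 to 1.73) and 0.92 (0.63 to 1.21), and 1.19 and 1.10 outside the epithelial-like clusters of a clustering of all barcodes, a setting chosen after seeing the data. Within those epithelial-like clusters, which held 107 of the 213 WT barcodes above 10%, Hsp90ab1 was lower in the WT library (-0.44, -0.81 to -0.06, against 17 barcodes of up to 5%) and at 0.31 (-0.042 to 0.68) in the Clec7a-/- library. WT proliferating barcodes of the same clustering were at -0.49 (-2.13 to 0.76), from 5 UMIs in 6 barcodes. The part of the class mix in the values over all classes was not tested beyond these groups. Hsp90aa1 had ratios of 0.044 and 0.25. The share of Hsp90ab1 in the pair thus went from 27.6% and 29.0% in the lowest bin to 63.2% and 57.6% at 10 to 20%. Within DC-like barcodes it went from 50.3% and 43.3% to 62.8% and 63.8%. All barcodes above 10% held 524 Hsp90ab1 and 353 Hsp90aa1 UMIs in the WT and 1058 and 769 in the Clec7a-/- library. The WT share above 20% was therefore below that at 10 to 20%.

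**Figure D5:**
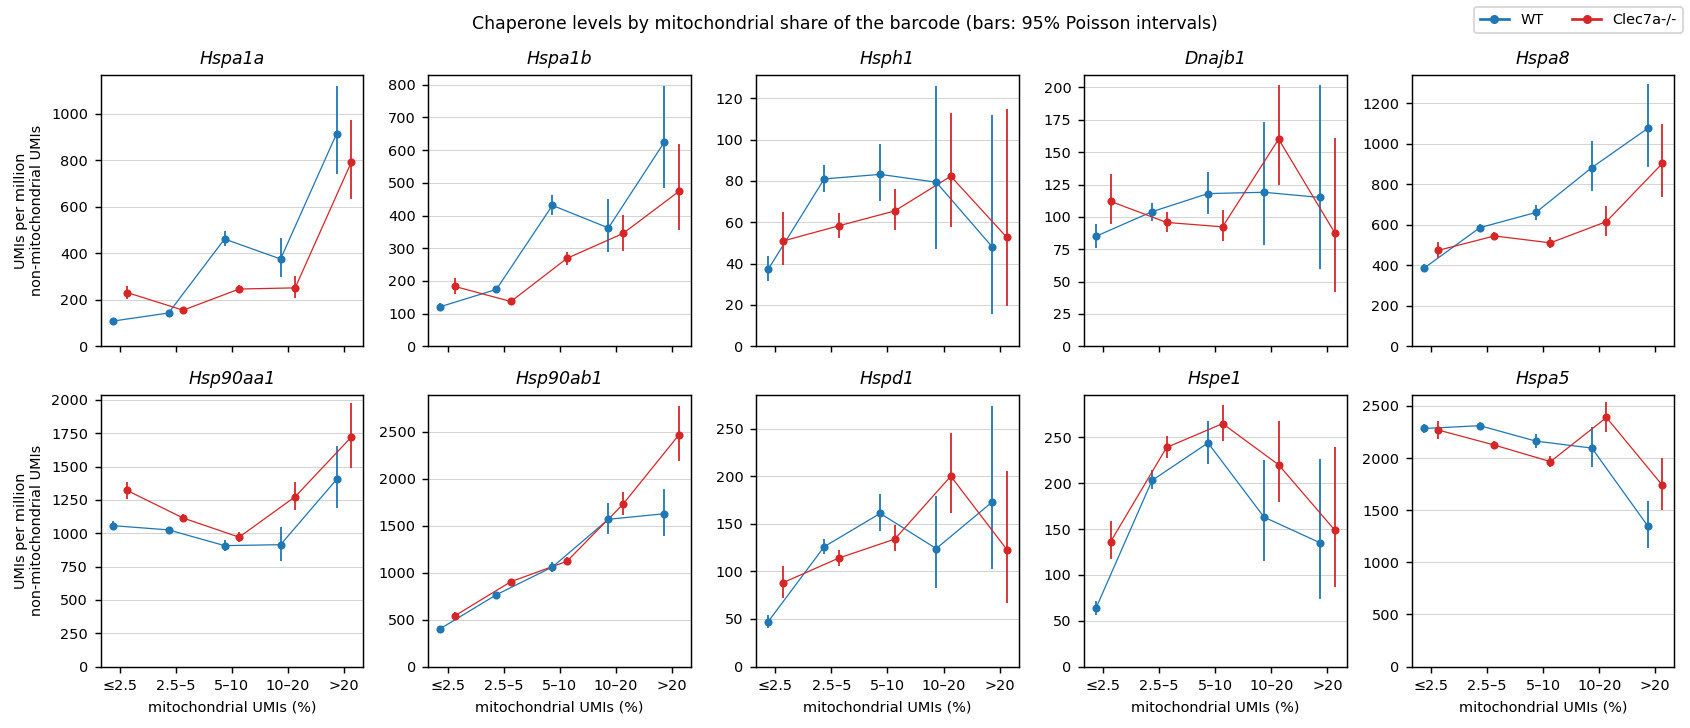
Level of each chaperone (CPM of non-mitochondrial UMIs) against the mitochondrial share of the barcode in 5 bins, in the WT (blue) and the Clec7a-/- (red) library, with 95% Poisson intervals. Hsp90ab1 is higher in each bin than in the one before it, from 403 to 1626 and from 540.1 to 2466.

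For the inducible Hsp70 genes the ratio differed between classes. Hspa1a was at 131 up to 5% and 545 above 10% in the WT library and at 168 and 360.1 in the Clec7a-/- library (log2 ratio 2.05 and 1.10), and Hspa1b had ratios of 1.51 and 1.36. Without barcodes of at least 10 UMIs of both genes together, the Hspa1a ratio was 2.05 and 1.01 and the Hspa1b ratio 2.03 and 1.67. That limit is a count on the same 2 genes, and depth differed with the mitochondrial share. A ratio that remains can thus be built in, and these values are a description. In DC-like barcodes Hspa1a had a ratio of -1.58 (-3.87 to -0.0044), from 3 and 147 UMIs, in the WT and of 0.029 (-0.79 to 0.76) in the Clec7a-/- library. The WT value rested on few barcodes, as 1 barcode held 71 of the 147 UMIs. Without the 5 WT DC-like barcodes of at least 10 UMIs of both genes, the level up to 5% was 14.7, against 27.6 above 10%. In macrophage-like barcodes Hspa1a had a ratio of 2.36 and 1.85, from 10 and 22 high-mitochondrial barcodes. Outside the epithelial-like clusters Hspa1a had a ratio of 2.08 in the WT and 0.59 in the Clec7a-/- library. The ratio of Hspa1b there was 1.27 (0.88 to 1.64) in the WT but turned to -0.24 (-0.67 to 0.17) in the Clec7a-/- library. In the DC-like class of the clustering of all barcodes, Hspa1a had a ratio of -2.67 (-7.99 to -0.16), from 1 and 108 UMIs, and 0.91 (0.054 to 1.70), from 17 and 68 UMIs.

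Hspa8 was 1.82-fold and 1.26-fold higher above 10%, but outside the epithelial-like clusters its log2 ratio was 0.056 and -0.028. Dnajb1 had a ratio of 0.28 and 0.56 and, outside those clusters, of -0.40 and -1.02. Hspa5 was lower above 10% in the WT library (-0.31, -0.42 to -0.19) and near even in the Clec7a-/- library (0.071), yet within DC-like barcodes it was higher in both, at 0.48 (0.26 to 0.70) and 0.45 (0.33 to 0.58).

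Over all classes, the chaperonin genes separated above 10% mitochondrial UMIs but not at 5 to 10%. At 5 to 10% over up to 5%, Hspd1 had a log2 ratio of 0.70 and 0.29 and Hspe1 of 0.64 and 0.26, with all intervals above 0. Outside the epithelial-like clusters these were 0.48 and 0.26 for Hspd1 and 0.52 and 0.21 for Hspe1, also with all intervals above 0. Within macrophage-like barcodes they were 0.11 and 0.14 for Hspd1 and 0.11 and 0.21 for Hspe1, with all intervals across 0. Within DC-like barcodes the Hspd1 ratio was 0.54 (0.087 to 0.98) and 0.17 (-0.11 to 0.46). The Hspe1 ratio there was 0.046 (-0.25 to 0.33) and -0.085 (-0.27 to 0.10). Above 10%, Hspd1 had a ratio of 0.49 and 0.75, and of 0.86 (-0.047 to 1.66) and 0.33 (-0.19 to 0.82) within DC-like barcodes. Outside the epithelial-like clusters the Hspd1 ratio was 0.31 (-0.40 to 0.95) and 0.48 (0.089 to 0.85). The 10 WT macrophage-like barcodes above 10% held 0 Hspd1 UMIs (upper bound of the ratio 0.39), and the Clec7a-/- macrophage-like ratio was 0.46 (-0.47 to 1.26). Above 10%, Hspe1 had a ratio of -0.017 and -0.11, and of -0.66 (-1.54 to 0.11) and -0.77 (-1.23 to -0.35) within DC-like barcodes. Outside the epithelial-like clusters the Hspe1 ratio was -0.26 (-0.96 to 0.35) and -0.52 (-0.90 to -0.17). Hsph1 had a ratio of 0.073 and 0.42, with both intervals across 0. Depth moved with the mitochondrial share as well, with medians of 1018 WT and 1380.0 Clec7a-/- UMIs above 20%, and its part in these values and that of the epithelial transcripts were not tested beyond the settings given here.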

How the data were processed

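Cells of AOM and DSS induced colorectal polyps were sequenced as 1 pooled library per genotype. The methods name a SeekOne microwell 3′ kit, whereas the labels name another platform, and the processing notes list Cell Ranger 2.1.1 and mm10. The authors deposited raw UMI counts per gene and barcode, and all 32285 genes were read as whole-number counts. Barcodes of 200 to 4000 genes with no more than 5% of UMIs from mitochondrial genes were clustered with Seurat 5.3.0 on R 4.3.3 (2000 variable features, 20 components, resolution 0.8, 15 clusters). Clustering did not use the chaperones, related lists, immediate-early or mitochondrial genes. A cluster took the name of the marker list with most markers past the limits, if at least 3. A shallow cluster with none of that list's markers among its leading genes stayed unnamed. The unnamed class was such a cluster, with 3 of 8 epithelial markers past. A cluster past the limits for both neutrophil and monocyte markers was named mixed, and proliferation markers had their own rule. Barcodes above 5% took the commonest class of their 30 nearest kept barcodes. Scrublet (scanpy 1.11.5) called 1 of 4695 kept barcodes, too few to have worked, so no doublets were removed.

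Levels are summed UMIs over summed non-mitochondrial UMIs. Intervals are exact Poisson, Clopper-Pearson or conditional binomial at 95%. With 1 library per genotype no test was made, and the threshold is a 1.5-fold ratio among genes with at least 100 UMIs, with a pseudocount of 0.5. Thinning drew 1000 UMIs a barcode and left out shallower ones, 186 WT and 307 Clec7a-/-. Scripts were tested on simulated data. Promoter sequences are RefSeq's of GRCm38.p6, and Hspa8, Hsp90aa1 and Hsp90ab1 had no window used here. All 10 members are named, and of each list the 3 highest and 3 lowest ratios were eligible, plus the 5 genes most like Hspa1a, Hspd1 and Hspa5 and the 5 highest beside Hspa1a. Members, lists and comparisons were chosen with earlier results of these data known. Alternatives covered filters, scaling, clustering, thinning and doublets. Clec7a was not analysed here.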

Additional observations from a re-analysis of the deposited data

Results flagged for a closer look

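The ratio of the Clec7a-/- over the WT library differed in direction between classes for Hspa1a and Hspa1b, which was not tested. For Hspa1a the log2 ratio was 1.28 in macrophage-like and 2.21 in T-cell-like barcodes but -0.68 in DC-like barcodes. For Hspa1b it was 0.98 in mixed, 0.69 in macrophage-like and 2.98 in T-cell-like barcodes but -1.19 in neutrophil-like and -1.20 in DC-like barcodes. The T-cell-like values rest on 1 Clec7a-/- barcode with 55 Hspa1a and 42 Hspa1b UMIs. In the WT library, 1 DC-like barcode held 71 of 147 Hspa1a UMIs and 1 neutrophil-like barcode held 62 of 158 Hspa1b UMIs. In the Clec7a-/- library, 1 mixed barcode held 11 of 25 Hspa1b UMIs. Among macrophage-like barcodes, single barcodes held 181 of 620 WT and 112 of 718 Clec7a-/- Hspa1a UMIs. For Hspa1b these were 279 of 803 and 95 of 618. Without barcodes of at least 10 UMIs of both genes, the ratios for Hspa1a and Hspa1b were 0.94 and 0.36 in macrophage-like and 0.25 and 0.25 in DC-like barcodes. In T-cell-like barcodes they were -2.06 and -1.47, from only 9 WT and 3 Clec7a-/- UMIs and from 4 and 2 UMIs.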

How the results depend on the processing

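No paired analysis was possible because each genotype is 1 pooled library. With no replicate library, no ratio here can be told apart from a difference between 2 libraries, and values of Hspa1a and Hspa1b rest on few barcodes. Of the main results recomputed under another setting, 103 values stayed within counting error or 1.5 times and 44 moved further. Of the other results 489 stayed, 352 moved further and 7 reversed. The cause of the moves was not tested. The median log2 ratio of the chaperones between the libraries, 0.093, was -0.08 with TMM scaling, which shifts all ratios by 0.17, and 0.23 without DC-like barcodes. No chaperone was 1.5-fold higher, but 1 was with 500 to 6000 genes, without macrophage-like barcodes, without DC-like barcodes or without the 5% highest Scrublet scores, the last chosen after seeing the data, and 1 was lower with the mean over barcodes or without macrophage-like barcodes. Genes of the background at 2-fold numbered 210 higher and 143 lower between the libraries, 1165 and 1202 by mitochondrial share in the WT and 536 and 572 in the Clec7a-/- library. With at least 20 UMIs they numbered 1797 and 780 between the libraries, 3838 higher in the WT, and 2947 higher and 2079 lower in the Clec7a-/- library.

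The median ratio above 10% mitochondrial UMIs in the WT was 1.29 against up to 2.5%, 0.99 at 1000 to 3000 UMIs, 1.28 in monocyte-like, 0.83 in T-cell-like and -0.32 in DC-like barcodes, where Hspa1a (-1.58), Hspa1b (-1.56) and Hspa8 (-0.56) reversed. In the Clec7a-/- library it was -0.0088 with under 2 epithelial marker UMIs and -0.025 outside the epithelial-like clusters, both chosen after seeing the data, where Hspa1b reversed to -0.27 and -0.24, and Hspa1a was -0.93 in T-cell-like barcodes. Without barcodes of at least 10 UMIs of Hspa1a and Hspa1b together, their WT DC-like levels up to 5% were 14.7 and 11.9. Above 10% both were at 27.6, from 3 UMIs each. The median ratio of the highest over the lowest myeloid class was 1.23 in the WT and 1.83 in the Clec7a-/- library with at most 10% mitochondrial UMIs, 1.57 and 2.01 with no limit, 0.85 and 0.94 with each barcode classed alone, 1.22 and 1.74 at a lower resolution and 1.68 and 1.81 without the highest Scrublet scores. It was 1.76 with reciprocal PCA in the WT and 1.85 with clusters of all barcodes in the Clec7a-/- library. With the mean over barcodes, Hspa1a in the WT was lower in macrophage-like than in neutrophil-like barcodes (-0.12). The share of barcodes with Hspa1a was 6.10% and 7.97% at 2000 UMIs and 9.87% and 10.2% unthinned. The median ratio beside Hspa1a in the Clec7a-/- library was 1.33 with at least 2 Hspa1a UMIs and 0.78 at 2000 UMIs.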
